A study of Mus musculus with 10 samples.

Results

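CXC chemokines are small secreted proteins that steer leukocytes through G protein-coupled receptors, and they are named for a single residue that sits between their first pair of conserved cysteines. Those that carry the residues Glu-Leu-Arg just before these cysteines (here Cxcl1, Cxcl2, Cxcl3 and Cxcl5) bind Cxcr2 and draw neutrophils out of blood and bone marrow into tissue, and in tumors they are made by cancer cells, fibroblasts and myeloid cells under inflammatory signals. The CXC chemokines without these residues serve other cells: Pf4 is best known as a platelet granule protein, Cxcl12 holds and guides many cell types through Cxcr4, Cxcl14 is abundant in normal epithelia, and Cxcl16 exists as a membrane-bound and a shed form that binds Cxcr6 on T and NKT cells.

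These 8 ligands and the receptors Cxcr2 and Cxcr4 were taken by gene symbol from the 26378 named features measured in WEHI-164 tumors, of which 14944 passed the filter on low counts. All 10 genes were found, and all 10 passed. WEHI-164 is an established mouse fibrosarcoma line, grown here under the skin of wild-type female BALB/c mice. The study asked what sets apart tumors that respond to a hydrogel releasing poly(I:C), a double-stranded RNA mimic sensed by Tlr3, when it is placed in the wound after most of the tumor is removed. The sequenced material was the removed tissue, kept in RNAlater, so no tumor had received the hydrogel and all were untreated when sampled. The 5 responders (tumors 5, 9, 10, 11 and 12) later regressed completely, and the 5 non-responders (tumors 1, 2, 3, 6 and 7) grew without delay. Each tumor came from its own mouse and gave 1 polyA library, the study's mice were aged 8 to 12 weeks, no batch is given in the sources used here, and totals ran from 16002949 to 31160790 estimated counts. In such bulk tissue, fewer cells of a type and less RNA per cell cannot be told apart. The labelled cell type was fibrosarcoma. All 8 listed fibroblast markers passed the filter, and the most abundant, the collagen gene Col1a1, averaged 1032 CPM (counts scaled to the library total). All 7 skeletal muscle markers and all 6 fat markers passed it too, so passing the filter does not check the label.

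The residues that split the family can be read from the genome. Each line below gives 30 coding bases 5′ to 3′ (GENCODE vM21 on GRCm38), with the 3 codons that precede the first cysteine codon of the Cys-X-Cys motif in capitals. They are shown because they fix which ligands are counted as neutrophil-attracting.
Cxcl1: atcgccaatGAGCTGCGCtgtcagtgcctg
Cxcl2: gtggccagtGAACTGCGCtgtcaatgcctg
Cxcl3: gtggccagtGAGCTGCGCtgtcagtgcctg
Cxcl5: gccgcaacgGAGCTGCGTtgtgtttgctta
Pf4: agcgatggaGATCTTAGCtgtgtgtgtgtg
Cxcl12: gtcagcctgAGCTACCGAtgcccctgccgg
Cxcl14: cgcgtggacGGGTCCAAGtgtaagtgttcc
Cxcl16: ggcagtgtcGCTGGAAGTtgttcttgtgat

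The capitals read Glu-Leu-Arg in Cxcl1, Cxcl2, Cxcl3 and Cxcl5, and Asp-Leu-Ser in Pf4. They lie within 1 exon at chr5:90891478-90891507 for Cxcl1, chr5:90904124-90904153 for Cxcl2, chr5:90786350-90786379 for Cxcl3, chr5:90759709-90759738 for Cxcl5 and chr5:90772926-90772955 for Pf4, all on the plus strand. An intron splits the window of Cxcl14, on the minus strand of chromosome 13. These 5 genes belong to a run of 7 coding CXC ligand genes on chromosome 5 that spans 146.6 kb from 90759360 to 90905938, in the order Cxcl5, Ppbp, Pf4, Cxcl3, Cxcl15, Cxcl1 and Cxcl2. Of the other members, Cxcr2 lies at chr1:74153989-74161246 on the plus strand, Cxcr4 at chr1:128588199-128592293 on the minus strand, Cxcl12 at chr6:117168535-117181367 on the plus strand, Cxcl14 at chr13:56288643-56296551 on the minus strand and Cxcl16 at chr11:70453983-70459984 on the minus strand. The coding sequences of Cxcl2 and Cxcl3 are 89.7% identical, against 75.7% for Cxcl1 and Cxcl2. Of the 31-base words in the transcripts of Cxcl2, 7.59% also occur in Cxcl3, so the split of reads between the pair is less certain than for Cxcl1, Pf4 and Cxcl14, which share no such word with another gene.

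Promoters in RefSeq's table for GRCm38 (250 bases before to 50 after the start) were found for 8 of the 10 genes, all but Cxcl5 and Cxcl16. The kappaB consensus, which NF-kappaB binds, was searched on both strands and occurred in 4.51% of all 32851 promoters, and in those of Cxcl1, Cxcl2 and Cxcl3 among the 8. The AP-1 letters TGANTCA occurred in 7.81% of all promoters and in none of the 8. The 120 bases before the start are shown for these 3 genes and for Pf4, their neighbour without the letters, with the overlapping matches on the plus and minus strand in capitals.
Pf4, chr5:90772315-90772434, plus strand: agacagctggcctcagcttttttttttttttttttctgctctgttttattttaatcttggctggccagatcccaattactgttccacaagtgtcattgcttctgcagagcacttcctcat
Cxcl3, chr5:90785981-90786100, plus strand: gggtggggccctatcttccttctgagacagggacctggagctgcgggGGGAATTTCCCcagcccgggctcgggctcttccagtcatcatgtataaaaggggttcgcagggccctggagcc
Cxcl1, chr5:90891125-90891244, plus strand: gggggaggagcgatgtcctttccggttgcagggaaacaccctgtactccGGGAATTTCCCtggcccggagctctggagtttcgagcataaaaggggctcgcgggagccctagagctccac
Cxcl2, chr5:90903779-90903898, plus strand: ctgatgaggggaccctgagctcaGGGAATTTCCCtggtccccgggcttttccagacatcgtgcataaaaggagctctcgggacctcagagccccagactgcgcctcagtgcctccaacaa

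The match began 71 bases before RefSeq's start in Cxcl1, 97 in Cxcl2 and 73 in Cxcl3. The GENCODE starts of Cxcl1 (90891241) and Cxcl2 (90903871) lie within the bases shown, so these distances hold for RefSeq's starts only. A match describes the letters and is not a measured binding site.

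Between the groups, the mean was higher in responders for 9 of the 10 genes and lower for 1, Cxcl14. The median log2 fold change (responders over non-responders) was 0.38 over the 10 genes and 0.00 over all features. With single tumors left out, the median over the 10 genes ran from 0.23, without responder 11, to 0.49, without responder 5. With edgeR and Benjamini-Hochberg adjustment over the 14944 features, none of the 10 passed an adjusted p of 0.05, and neither did any other feature (0%), the smallest adjusted p being 0.555. At an unadjusted p under 0.05, 4 of the 10 were counted, beside 8.36% of all features. They were Cxcl2, Cxcl3 and Pf4, higher in responders as were 4.75% of all features, and Cxcl14, lower as were 3.61%. In none of the 10 were the groups fully apart, which held for 0.883% of all features. DESeq2 called 1 feature at the adjusted threshold and limma none, with 1215 and 1285 features at an unadjusted p under 0.05 against 1250 for edgeR. The feature called by DESeq2 was the collagen gene Col6a2, named after its value was seen.

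**Figure D1:**
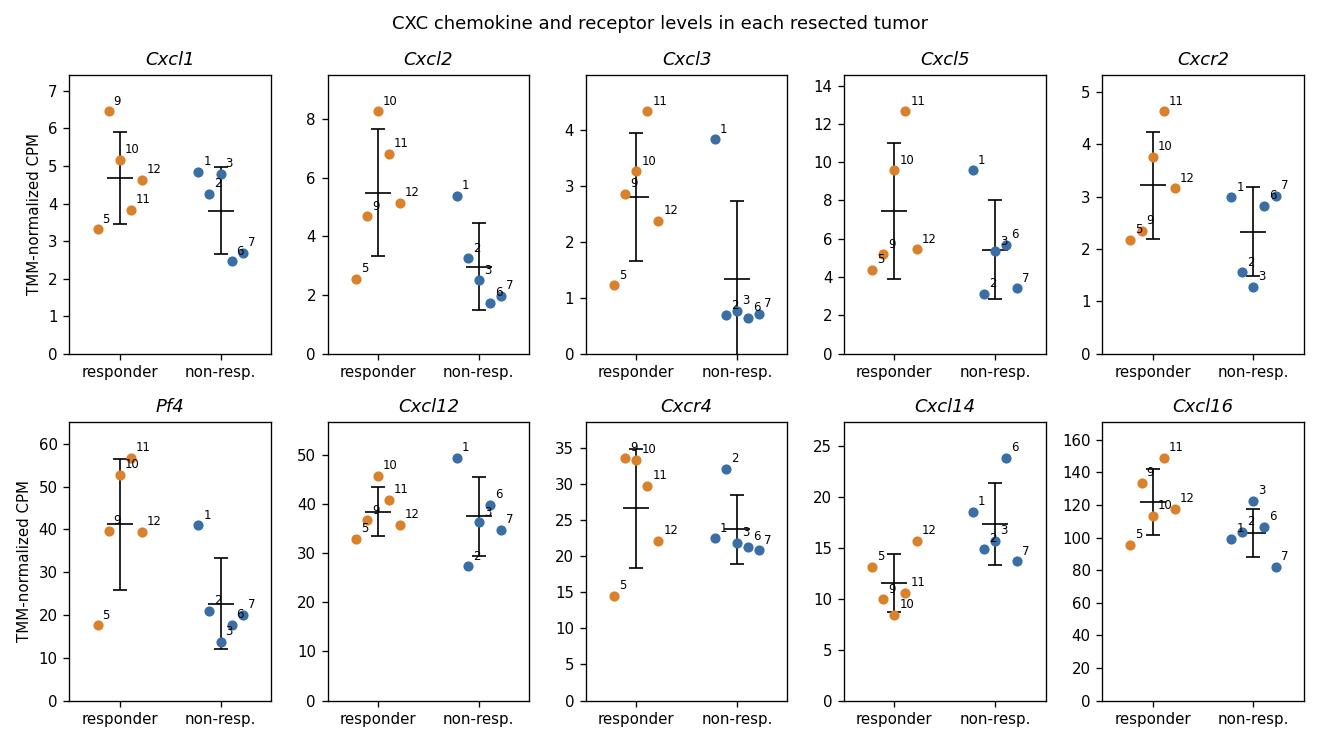
TMM-normalized CPM (vertical axis, linear from 0) of the 10 genes in each responder (orange) and non-responder (blue), with tumor numbers beside the points; the horizontal mark and bars give the mean and SD of 5 tumors, and the lower bar for Cxcl3 in non-responders runs below the axis. For Cxcl3, non-responder 1 stands at 3.83 while the other 4 non-responders lie between 0.638 and 0.765, below every responder.

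The ligands of Cxcr2 were measured at low levels, and their sum leaned to responders with overlap. Summed over Cxcl1, Cxcl2, Cxcl3 and Cxcl5, the TMM-normalized CPM was 11.5, 19.2, 26.3, 27.6 and 17.6 in responders 5, 9, 10, 11 and 12. It was 23.7, 11.3, 13.4, 10.52 and 8.80 in non-responders 1, 2, 3, 6 and 7. Responder 5 lay among the low non-responders and non-responder 1 among the high responders. The means were 20.4 ± 6.63 and 13.5 ± 5.89 CPM (SD, n = 5 each). Cxcl3 made up between 10.7% and 15.7% of the sum in responders and 16.2% in non-responder 1, and between 5.70% and 8.11% in the other 4 non-responders.

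Cxcl1, an early signal for neutrophil entry into inflamed tissue, was at 3.31, 6.46, 5.16, 3.84 and 4.64 CPM in responders 5, 9, 10, 11 and 12. In non-responders 1, 2, 3, 6 and 7 it was at 4.85, 4.26, 4.79, 2.46 and 2.69 CPM. The groups overlapped over most of their range, and non-responders 6 and 7 were the lowest tumors. Responders exceeded non-responders by a log2 fold change of 0.28 (SE 0.22, adjusted p = 0.759), or of 0.15 without responder 9.

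Cxcl2, a closely related ligand made by macrophages and other cells on stimulation, was at 2.56, 4.69, 8.27, 6.81 and 5.14 CPM in responders 5, 9, 10, 11 and 12. Non-responders 1, 2, 3, 6 and 7 gave 5.39, 3.25, 2.498, 1.73 and 1.98 CPM. Responder 10 was the highest, and the groups overlapped. Non-responder 1 was above responders 5, 9 and 12, and responder 5 was below non-responders 1 and 2. On 38 to 206 estimated counts per tumor, the log2 fold change was 0.88 (SE 0.33, adjusted p = 0.567). It ran from 0.70 without responder 10, the 1 of 18 settings in which the unadjusted p was not under 0.05, to 1.20 without non-responder 1.

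Cxcl3, the nearest relative of Cxcl2, was at 1.22, 2.85, 3.26, 4.33 and 2.38 CPM in responders 5, 9, 10, 11 and 12. Non-responders 2, 3, 6 and 7 were at 0.686, 0.765, 0.638 and 0.713 CPM, below all responders, while non-responder 1 was at 3.83, above 4 of the 5 responders. Between the group means, 2.81 ± 1.14 and 1.33 ± 1.40 CPM (SD), the log2 fold change was 1.09 (SE 0.50, adjusted p = 0.593). This value turned on single tumors, with an unadjusted p under 0.05 in 9 of 18 settings. It was 2.0 without non-responder 1 (adjusted p = 0.274) and 0.86 without responder 11 (adjusted p = 0.864), and over all settings the adjusted p ran from 0.253 to 0.864. With the counts of Cxcl2 and Cxcl3 added together, an alternative chosen after the data were seen, the log2 fold change of the pair was 0.95 (SE 0.37, adjusted p = 0.572).

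Cxcl5, a ligand known from epithelial cells and platelets, was at 4.38, 5.19, 9.57, 12.7 and 5.45 CPM in responders 5, 9, 10, 11 and 12. In non-responders 1, 2, 3, 6 and 7 it was at 9.57, 3.14, 5.35, 5.69 and 3.41 CPM. Responders 10 and 11 and non-responder 1 stood above the other 7 tumors. The difference, a log2 fold change of 0.48 (SE 0.34, adjusted p = 0.731), was 0.18 without responder 11 and 0.78 without non-responder 1.

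Cxcr2, the receptor that these ligands share and that neutrophils carry, was at 2.17, 2.34, 3.76, 4.63 and 3.16 CPM in responders 5, 9, 10, 11 and 12. It was at 2.98, 1.55, 1.27, 2.82 and 3.01 CPM in non-responders 1, 2, 3, 6 and 7. Responders 10, 11 and 12 were above every non-responder, and responders 5 and 9 were not. Its log2 fold change was 0.47 (SE 0.27, adjusted p = 0.665), and 0.29 without responder 11. Of the 31-base words of Cxcr2 transcripts, 12.1% also occur in other genes. The other receptor for some of these ligands, Cxcr1, gave no more than 4 counts in a tumor and was below the filter.

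Markers of neutrophils leaned the same way as these values, and their part in them was not tested. Of 12 markers, 6 passed the filter, all 6 with a higher mean in responders and 2 at an unadjusted p under 0.05, with a median log2 fold change of 0.67. Summed over all 12 markers, with those below the filter included, the level was 23.7, 29.8, 44.1, 54.9 and 30.97 CPM in responders 5, 9, 10, 11 and 12. It was 36.5, 17.6, 23.3, 25.1 and 22.6 CPM in non-responders 1, 2, 3, 6 and 7. The most abundant was Csf3r, the receptor for the growth factor of the neutrophil line, at a mean of 20.4 CPM. The others past the filter, S100a8, S100a9, Mmp8, Retnlg and Il1r2, averaged 1.546, 2.835, 1.642, 0.3843 and 3.479 CPM. Those below the filter were near 0. Ly6g and Ngp gave at most 2 counts, Camp at most 8, Ltf at most 7 and Mpo at most 10 in any tumor. Elane was at 0 in all 10.

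Over the 10 tumors, Cxcr2 and the neutrophil marker score (the mean log2(CPM + 1) of the 6 markers, Cxcr2 not among them) had a Pearson r of 0.842 (permutation p = 0.00209, 0.0125 adjusted over 6 relations). Spearman's rho was 0.83 (permutation p = 0.00452, adjusted 0.0271). On deviations from the group means r was 0.794 (permutation p = 0.00676, adjusted 0.0222). Leaving out responders 10 and 11, which lay farthest from the median of the score, gave an r of 0.684 over 8 tumors. This was no longer past the threshold (exact permutation p = 0.0603, adjusted 0.21). With single tumors left out r ran from 0.77 to 0.891 and stayed past the adjusted threshold each time, while rho lost it without responder 10 (adjusted 0.0765), responder 11 (0.0642), responder 12 (0.083) or non-responder 2 (0.0622). Cxcl1 and Cxcl2 had an r of 0.671 (permutation p = 0.0361, adjusted 0.0541) and a rho of 0.636 (permutation p = 0.0547, adjusted 0.0821), and without responder 10 and non-responder 6 r was 0.508 (exact permutation p = 0.202, adjusted 0.242).

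Pf4, platelet factor 4, and Cxcl16 were the members with the highest levels per length. Pf4 was at 17.5, 39.7, 52.7, 56.7 and 39.4 CPM in responders 5, 9, 10, 11 and 12, and at 41.0, 20.9, 13.7, 17.7 and 19.97 CPM in non-responders 1, 2, 3, 6 and 7. The tumors fell into separate sets of 5: responders 9, 10, 11 and 12 with non-responder 1 at 39.4 CPM or more, and responder 5 with the other 4 non-responders at 20.9 CPM or less. The log2 fold change was 0.86 (SE 0.31, adjusted p = 0.567). It ran from 0.71 without responder 11 to 1.18 without non-responder 1, and the unadjusted p was under 0.05 in all 18 settings tried, while the adjusted p ran from 0.0945 to 0.861.

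Markers of platelets were mixed in direction. Of 9 platelet markers 5 passed the filter, 2 with a higher and 3 with a lower mean in responders, at a median log2 fold change of -0.14. Gp1bb, a subunit of the platelet receptor for von Willebrand factor, had a log2 fold change of -0.72 (SE 0.27, adjusted p = 0.570). All 9 platelet markers, with those below the filter included, summed to 11.9 ± 1.79 CPM in responders against 13.3 ± 1.37 CPM (SD). Itga2b, an integrin subunit, was the most abundant at 6.98 CPM. Gp9, a partner of Gp1bb in its receptor, gave at most 3 counts in any tumor. Ppbp, the platelet gene next to Pf4, gave 1 to 28 counts and had a log2 fold change of 0.90 (SE 0.65, adjusted p = 0.733). All 10 macrophage markers passed the filter, 9 with a higher mean in responders and none at an unadjusted p under 0.05. Summed, they reached 2683 ± 299.6 CPM in the responder tumors against 2439 ± 288 CPM (SD), led by the lysozyme gene Lyz2 at 997 CPM. Pf4 and the macrophage marker score had an r of 0.729 (permutation p = 0.0198, adjusted 0.0397) and a rho of 0.685 (permutation p = 0.0346, adjusted 0.0692). On deviations from the group means r was 0.645 (permutation p = 0.0424, adjusted 0.0837), and without responder 11 and non-responder 1 it was 0.565 (exact permutation p = 0.14, adjusted 0.21). Since Pf4 fell into separate sets of 5 tumors, the pooled coefficient is a description of those sets and was not computed within them. The part of these cell types in the level of Pf4 was not tested.

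**Figure D2:**
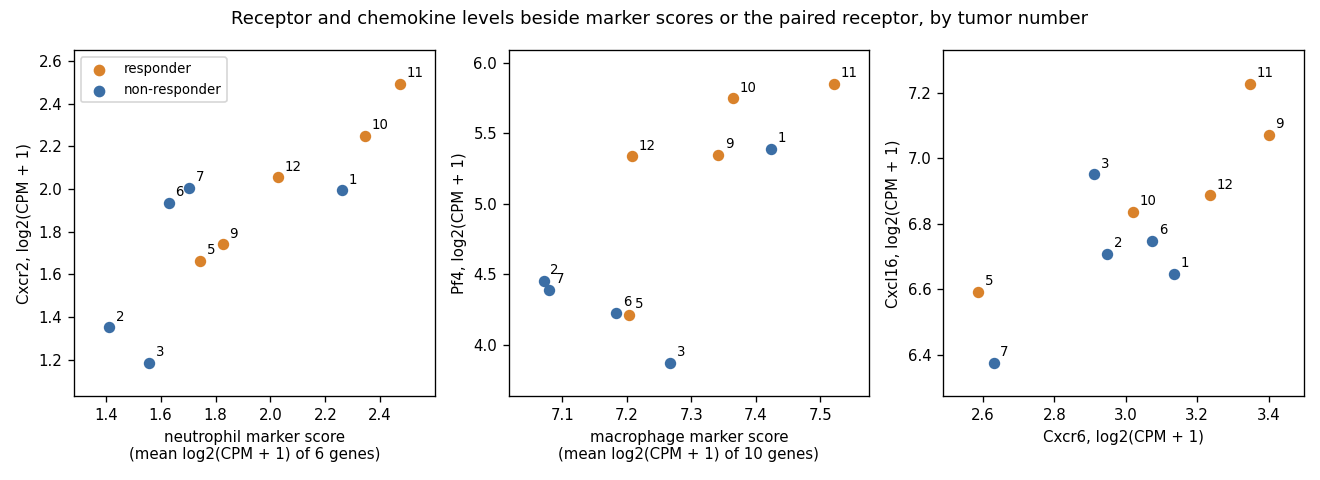
Level of Cxcr2 against the neutrophil marker score, of Pf4 against the macrophage marker score and of Cxcl16 against its receptor Cxcr6, all on the log2(CPM + 1) scale, with 1 point for each of the 10 tumors (orange, responder; blue, non-responder; numbers, tumor). Responders 10 and 11 are highest for both measures in the Cxcr2 panel, and in the Pf4 panel 5 tumors lie at 5.34 or more and 5 at 4.45 or less.

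Cxcl12, made by fibroblasts and endothelial cells, was at 32.9, 36.6, 45.7, 40.7 and 35.8 CPM in responders 5, 9, 10, 11 and 12 and at 49.3, 27.3, 36.2, 39.8 and 34.7 CPM in non-responders 1, 2, 3, 6 and 7. The highest and the lowest tumor were both non-responders. Between the groups the log2 fold change was 0.04 (SE 0.13, adjusted p = 0.967), and its sign turned when non-responder 2 (-0.07) or responder 10 (-0.03) was left out. Of 8 endothelial markers, 7 had a lower mean in responders, 4 of them (Cdh5, Kdr, Tie1 and Esam) at an unadjusted p under 0.05. The most abundant, Pecam1 at 71.4 CPM, was the 1 with a higher mean in responders (log2 fold change 0.10). Cxcl12 and the endothelial marker score had an r of -0.53 (permutation p = 0.107, adjusted 0.128) and a rho of -0.58 (permutation p = 0.0883, adjusted 0.106). On deviations from the group means r was -0.60 (permutation p = 0.0639, adjusted 0.0837). With single tumors left out it ran from -0.64, without non-responder 1, to -0.25, without non-responder 2. Without non-responder 2 and responder 11 it was -0.23. None was past the adjusted threshold.

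Cxcr4, the receptor of Cxcl12 on most leukocytes, was at 14.5, 33.6, 33.3, 29.8 and 22.1 CPM in responders 5, 9, 10, 11 and 12 and at 22.4, 32.1, 21.8, 21.3 and 20.8 CPM in non-responders 1, 2, 3, 6 and 7. Responder 5 was the lowest of all, and non-responder 2 stood well above the other non-responders. Its log2 fold change was 0.16 (SE 0.20, adjusted p = 0.859), 0.32 without responder 5 and 0.07 without responder 10. Ackr3, a second receptor that takes up Cxcl12, was at 26.6 ± 4.21 and 25.8 ± 3.64 CPM (SD) with a log2 fold change of 0.04 (SE 0.12).

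Cxcl14 was the member with a lower mean in responders. It was at 13.1, 9.95, 8.42, 10.6 and 15.7 CPM in responders 5, 9, 10, 11 and 12, and at 18.5, 14.9, 15.7, 23.8 and 13.7 CPM in non-responders 1, 2, 3, 6 and 7. Responders 5, 9, 10 and 11 were below every non-responder, and responder 12 lay within their range. The log2 fold change was -0.58 (SE 0.18, adjusted p = 0.555), from -0.72 without responder 12 to -0.44 without non-responder 6. The unadjusted p was under 0.05 in all 18 settings, and the adjusted p ran from 0.178 to 0.861. Keratinocytes of overlying skin are a known source of Cxcl14. Of 8 keratinocyte markers 3 passed the filter: among those below it, Krt1 was at 0 in all tumors, and Krt5 gave at most 6 and Krt14 at most 7 counts. Those past it were Krt10, with 53 to 94 counts, Dsp, the most abundant at 13.9 CPM, and Trp63. All 8 markers, with those below the filter included, summed to 20.5 ± 1.76 CPM in responders against 19.3 ± 0.853 CPM (SD). Trp63, a transcription factor of basal epithelial cells, was the 1 at an unadjusted p under 0.05, with a log2 fold change of 0.80 (SE 0.24, adjusted p = 0.555) and 4 responders above every non-responder. The part of these cells in the level of Cxcl14 was not tested. Cxcl14 and this score had an r of -0.31 (permutation p = 0.38, adjusted 0.38) and a rho of -0.27 (permutation p = 0.445, adjusted 0.445), and the sign of r turned to 0.315 on deviations from the group means. With single tumors left out r ran from -0.54, without responder 12, to -0.17, without responder 10, and without responder 12 and non-responder 2 it was -0.61, none past the threshold.

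Genes of skeletal muscle and fat, tissues next to the tumor, had lower means in responders, as Cxcl14 did. All 7 muscle markers and all 6 fat markers passed the filter and had a lower mean in responders, with 1 in each list at an unadjusted p under 0.05. The muscle markers, led by the actin gene Acta1 at 58.1 CPM, summed to 126 ± 54.3 CPM in responders against 171 ± 47.6 CPM (SD). The fat markers, led by the lipase gene Lipe at 10.4 CPM, summed to 16.5 ± 4.17 and 20.1 ± 6.97 CPM. Of the 8 fibroblast markers, 3 had a higher and 5 a lower mean in responders, 1 of these at an unadjusted p under 0.05. The part of these tissues in the level of Cxcl14 was not tested.

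Cxcl16, which dendritic cells and macrophages display on their surface, was at 95.5, 133.5, 113.3, 148.8 and 117.4 CPM in responders 5, 9, 10, 11 and 12 and at 99.2, 103.6, 122.7, 106.5 and 82.1 CPM in non-responders 1, 2, 3, 6 and 7. Responders 9 and 11 were above every non-responder, and responder 5 was below all but 1 of them. Its log2 fold change was 0.24 (SE 0.12, adjusted p = 0.611), 0.16 without responder 11 and 0.32 without responder 5, and the unadjusted p was under 0.05 in 4 of 18 settings. Of its 31-base words, 18.5% also occur in Zmynd15, which overlaps it on the opposite strand. Zmynd15 averaged 30.7 CPM in responders against 30.8 CPM, and with both genes added together, an alternative chosen after the data were seen, the log2 fold change was 0.19 (SE 0.11, adjusted p = 0.678).

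Cxcr6, the receptor of Cxcl16, averaged 7.86 ± 1.85 CPM in responders against 6.73 ± 1.003 CPM (SD), with a log2 fold change of 0.22 (SE 0.17, adjusted p = 0.741). Ligand and receptor varied together over the 10 tumors, with an r of 0.805 (permutation p = 0.00535, adjusted 0.016) and a rho of 0.709 (permutation p = 0.0274, adjusted 0.0692). On deviations from the group means r was 0.779 (permutation p = 0.00741, adjusted 0.0222) and rho was 0.709 (permutation p = 0.0263, adjusted 0.0789). With single tumors left out, rho was past the adjusted threshold only without non-responder 3 (exact permutation p = 0.00607, adjusted 0.0323). Without responder 5 and non-responder 7, which had the lowest Cxcr6, r was 0.63, no longer past the threshold (exact permutation p = 0.0961, adjusted 0.21). Leaving out non-responder 7 alone gave an r of 0.723 (exact permutation p = 0.0269, adjusted 0.0653), and leaving out responder 5 alone gave 0.808 (exact permutation p = 0.0101, adjusted 0.0302). Both genes share library and depth, and T cell markers leaned the same way: 7 of 8 were measured, and the mean of each was higher in responders with none at an unadjusted p under 0.05, at a summed 34.8 ± 12.2 against 25.7 ± 8.05 CPM (SD) and with Cd4 the most abundant at 7.81 CPM. Their part in the relation was not tested.

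**Figure D3:**
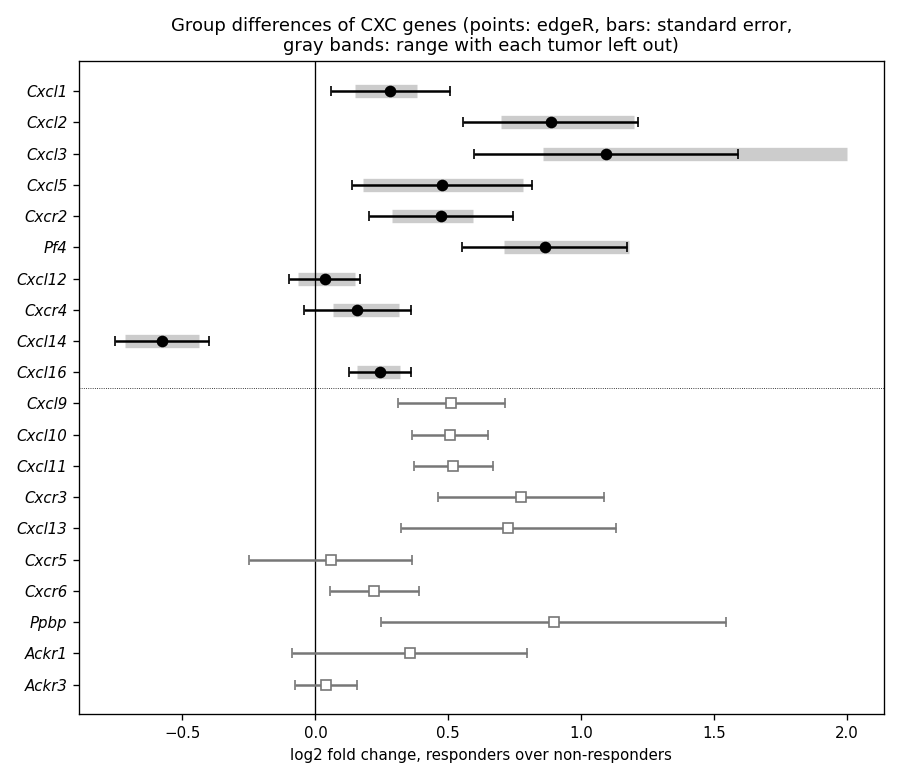
Log2 fold change of responders over non-responders (horizontal axis) for the 10 genes (filled circles) and 10 further genes of the CXC system that passed the filter (open squares), with bars for the standard error from edgeR. Gray bands give the range of each of the 10 genes when each tumor was left out in turn, from 0.86 to 2.0 for Cxcl3 and across 0 for Cxcl12.

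The further genes of the CXC system were counted from a list of 13. Cxcl15, Cxcl17 and Cxcr1, with no more than 4 counts in a tumor, were below the filter, and the other 10 were higher on average in responders, 4 of them at an unadjusted p under 0.05 and none at an adjusted p of 0.05. These 4 were the interferon-induced ligands Cxcl9, Cxcl10 and Cxcl11, with log2 fold changes of 0.51 (SE 0.20), 0.51 (SE 0.14) and 0.52 (SE 0.15), and their shared receptor Cxcr3 with 0.77 (SE 0.31), which activated T and NK cells carry. Their adjusted p were 0.572, 0.555, 0.555 and 0.573. Responder 5, low for 9 of the 10 genes above, was at 230.7 CPM of Cxcl9, 233.4 of Cxcl10 and 46.9 of Cxcl11. These levels were above the non-responder means of 179, 157 and 37.3 CPM. Non-responder 3 was above responder 5 for Cxcl9 (250.7 CPM) and Cxcl11 (48.02 CPM), and below it for Cxcl10 (204.9 CPM). For Cxcr3, responder 5 was the lowest of the 10 tumors, at 0.552 CPM. Cxcl10 and Cxcl11 overlap Art3 on the opposite strand, and the annotation gives Cxcl11 as a polymorphic pseudogene. Cxcl13, which draws B cells through Cxcr5, had a log2 fold change of 0.73 (SE 0.40, adjusted p = 0.656), Cxcr5 one of 0.06 (SE 0.31) and the scavenging receptor Ackr1 one of 0.35 (SE 0.44).

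All 6 NK cell markers had a higher mean in responders, 5 of them at an unadjusted p under 0.05, with a summed 120 ± 62.8 against 48.0 ± 19.6 CPM (SD) and the granzyme gene Gzma leading at 36.6 CPM. Their sum was lowest among responders in responder 5, at 33.0 CPM, and highest in responder 11, at 209.9 CPM. Their part in the chemokine levels was not tested.

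Of a list of 12 inducers of the Cxcr2 ligands, their regulators and growth factor genes of the neutrophil line, 11 passed the filter (the cytokine gene Il17a did not), and the mean of each of the 11 was higher in responders, 2 at an unadjusted p under 0.05 and none at an adjusted p of 0.05. The 3 with the smallest p were Csf3r, counted above as a neutrophil marker (log2 fold change 0.62, SE 0.23), Nfkbia, which encodes the NF-kappaB inhibitor that NF-kappaB itself induces (0.24, SE 0.10), and Il1b, a cytokine of activated myeloid cells (0.76, SE 0.37). Their adjusted p were 0.570, 0.573 and 0.611. The 2 at an unadjusted p under 0.05 were Csf3r and Nfkbia, a receptor and an inhibitor rather than inducing cytokines.

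Of 8 enzymes that cut or shed chemokines, 7 passed the filter, 5 with a higher and 2 with a lower mean in responders. Ctsg, a granule protease that can trim several chemokines, had a log2 fold change of 1.26 (SE 0.33, adjusted p = 0.555) at means of 3.86 ± 1.65 and 1.64 ± 0.676 CPM (SD). Adam17, a sheddase, had 0.21 (SE 0.07, adjusted p = 0.555), while Adam10, which sheds Cxcl16, had -0.04 (SE 0.04). The metalloproteases Mmp8, Mmp9 and Mmp2 had 0.72 (SE 0.37), 0.42 (SE 0.33) and -0.03 (SE 0.14), and Dpp4, the peptidase that inactivates Cxcl12, had 0.09 (SE 0.25). Elane was at 0.

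Per length, the members spanned a wide range of levels. In CPM per kb of merged exons, averaged over the 10 tumors, Pf4 was at 44.3 ± 21.9, Cxcl16 at 37.2 ± 6.42, Cxcr4 at 13.9 ± 3.61 and Cxcl14 at 7.90 ± 2.46 (SD, n = 10). Cxcl12 was at 4.64 ± 0.772, Cxcl5 at 3.46 ± 1.67, Cxcl1 at 2.27 ± 0.646, Cxcl2 at 2.05 ± 1.06, Cxcr2 at 0.909 ± 0.327 and Cxcl3 at 0.591 ± 0.410. Cxcl16 was above Cxcr4 in all 10 tumors, and each of Cxcr4, Cxcl14 and Cxcl12 was above the next in 9, and Cxcl5 over Cxcl1, Cxcl2 over Cxcr2 and Cxcr2 over Cxcl3 held in 8. The neighbours that changed places most were Pf4 and Cxcl16, and Cxcl1 and Cxcl2, ordered this way in 6 of 10 tumors, so neither pair differed beyond its spread. With the longest coding transcript as the length, chosen after the data were seen, Cxcl3 was at 2.03 ± 1.41 and came before Cxcr2, and Cxcl1 at 4.46 ± 1.27 came before Cxcl5 at 4.09 ± 1.97.

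**Figure D4:**
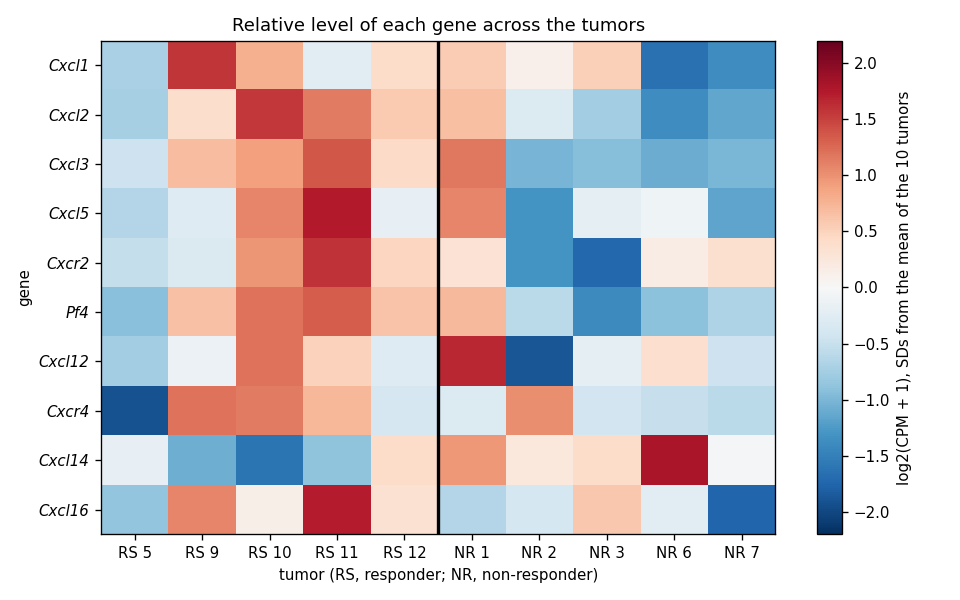
Heat map of the 10 genes (rows) in the 10 tumors (columns, responders left of the line), each cell giving log2(CPM + 1) as SDs from that gene's mean over the tumors (red, above; blue, below). Responder 11 is at 1.36 for Cxcl3, 1.74 for Cxcl5 and 1.59 for Cxcr2, and responder 5 is below 0 for all 10 genes.

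Read by tumor, the members did not follow the group labels alone. Responder 11 was the highest tumor for Cxcl3, Cxcl5, Cxcr2, Pf4 and Cxcl16, and responder 10 was among the 4 highest for 8 of the 10 genes. Responder 5 was among the 4 highest for 0 and among the 4 lowest for 9. Non-responder 1 was among the 4 highest for 7, and non-responder 7 among the 4 lowest for 8. Without responder 5, 6 of the 10 genes were at an unadjusted p under 0.05 (Cxcl2, Cxcl3, Cxcr2, Pf4, Cxcl14 and Cxcl16) against 4 with it. The share of all features rose alongside, to 14.1% from 8.36%, and none of the 10 passed the adjusted threshold.

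For the 6 members with a mean of at least 5 CPM, the features whose log2(CPM + 1) most resembled them over the 10 tumors were taken from 10988 features, as a description. For Cxcl5 they were Evl (r = 0.983), Laptm5 (0.969) and Ptpn7 (0.96), and for Pf4 they were Il27ra (0.978), Ethe1 (0.972) and F10 (0.958). For Cxcl16 they were B2m (0.991), H2-K1 (0.982) and Tmsb4x (0.973). For Cxcl14 they were Zfp617 (0.958), Rrbp1 (0.941) and Mxra7 (0.885), for Cxcl12 they were Zcchc2 (0.93), Hyls1 (0.926) and Ikzf1 (0.924), and for Cxcr4 they were Naa80 (0.942), Tradd (0.915) and Il1b (0.909). All points share their libraries and depth, and the highest of so many coefficients over 10 tumors is high by selection.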

How the data were processed

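RNA was extracted with Trizol and chloroform from tumor pieces kept in RNAlater, purified on RNeasy columns and sequenced as paired-end Illumina reads. The authors checked reads with FastQC (v0.11.3), estimated transcript abundances with Kallisto (v0.43.0) and collapsed transcripts to genes with tximport (GRCm38, also called mm10). They deposited whole estimated counts per gene, not normalized for depth or length. The annotation release and the strandedness are not given in the sources used here.

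Of 36009 rows, 9580 have no gene name (1.20% to 1.49% of counts) and were left out of library sizes and tests. Rows of 44 repeated names were summed and counts rounded. The filter asked for a CPM over 0.366 in 3 or more tumors, which the study used for its time course. Groups were compared with edgeR 4.0.16 (quasi-likelihood test, TMM, R 4.3.3). Its steps were also run on simulated counts with the same dispersion for every feature, which does not measure power or error for the 10 members. DESeq2 1.42.0, limma 3.58.1, other filters and scalings and leaving out each tumor were alternatives. An SE is a log2 fold change divided by the root of its F statistic. The common biological coefficient of variation was 10.1%, and counting error adds to it for genes of few counts. Each library is 1 mouse, and none of the 20 pairs of tumors within a group agreed within sampling noise (chi-square over its degrees of freedom 5.05 to 27.7, where equal libraries give about 1). Correlations used log2(CPM + 1), with 100000 permutations or, under 10 tumors, exact enumeration (numpy 2.4.6, scipy 1.17.1, Python 3.11.15).

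The text names all 10 members, the other CXC genes, the enzymes, the 3 inducers with the smallest p, the most abundant marker of each list and the 3 features most like each member; further markers were named after their values were seen. The members, lists and relations were chosen with earlier results of these data known.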

Additional observations from a re-analysis of the deposited data

Results flagged for a closer look

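Within each group of 5 tumors, the highest and the lowest value of log2(CPM + 1) were set against the rest for the genes above, and a tumor was singled out where its gap to the nearest other exceeded 0.71 of the group's range. Of 60 groups examined 3 were singled out, and chance gives about 3. Cxcl3 in non-responder 1 was at 2.27, against 0.711 to 0.819 in the other non-responders. Cxcr4 in non-responder 2 was at 5.05, against 4.45 to 4.55. Ppbp in responder 5 was at 0.26, against 0.766 to 0.965 in the other responders, on 5 counts.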

How the results depend on the processing

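Of the log2 fold changes of the 10 members under the alternatives, 171 kept their direction and their side of the adjusted threshold and 2 turned, both of Cxcl12: -0.0654 without non-responder 2 and -0.0348 without responder 10, within a range of -0.0654 to 0.15 with single tumors left out. The 0 calls over all features became 1 with DESeq2 (Col6a2, -0.48 in edgeR) and ran from 0 to 10 with single tumors left out. The 10 calls came without responder 5 and included none of the members. Keeping rows without a gene name, added after the data were seen, gave 0 calls. No paired analysis was possible because the groups share no replicate number. The correlation of Cxcl1 with Cxcl2 was 0.696 (permutation p, adjusted 0.0403) with a pseudocount of 0.1, and ran from 0.551 to 0.772 with single tumors left out, passing the adjusted threshold without responder 11 (0.0336) or non-responder 3 (0.029). That of Cxcl14 with the keratinocyte score turned to 0.315 on deviations from the group means. Without the 2 tumors farthest from the median, those of Cxcr2 with the neutrophil score and of Cxcl16 with Cxcr6 were 0.684 and 0.63, and the latter ran from 0.723, without non-responder 7 and past the threshold no longer (adjusted 0.0653), to 0.866 with single tumors left out. That of Pf4 with the macrophage score was past the adjusted threshold in neither of these ways, at 0.645 on deviations and 0.565 without the 2 farthest tumors. It ran from 0.632 to 0.837 with single tumors left out, and passed only without responder 12 (0.0327) or non-responder 3 (0.0195). The order by level per length kept 6 of 10 places with the longest coding transcript. The cause of these shifts was not tested. Depth limits the low genes most: Cxcl3 rested on 14 to 131 counts and Cxcr2 on 25 to 140.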
